A study of Danio rerio with 9 samples.

Results

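Kinesins are motor proteins that bind microtubules and, in most cases, use ATP to walk along them or to take their ends apart. Mitotic kinesins build the spindle and divide the cell, transport kinesins carry vesicles and organelles, and kinesin-2 motors carry building material into cilia. The kif26 proteins are atypical kinesins: they bind microtubules, but their motor domain lacks the ATP-driven movement of the rest of the family. In mammals KIF26B is known as a cytoskeletal effector of Wnt5a and Ror signalling, and KIF26A as a regulator of Ret signalling in enteric neurons. The tailbud, where the body axis extends, is a tissue in which both cell division and polarised cell movement go on.

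The genes described here are the lines of the count table whose name begins with kif and a number. There were 42 such lines of 32020 in all, under 41 names, since *kif5ba* stood on 2 lines. They were divided by their known roles into 11 mitotic kinesins, 16 lines of transport kinesins, 9 ciliary kinesins, 4 kif26 genes and 2 others (*kif25* and *kif28*). The family was chosen by the measured values of *kif26aa*, which had been seen to be high in 1 of the transgenic lines, so its values in that line are given as a description, without a test, and it is left out of the counts there. The choice rested on no other member, but members, classes and gene lists were set with earlier results of these data known.

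Bulk RNA sequencing was carried out on dissected tailbuds of heat-shocked zebrafish embryos. There were 3 samples of tg(*hsp70l:tbx16*), 3 of tg(*hsp70l:msgn1*) and 3 of wild type, each made of 10 pooled tailbuds. All 3 groups received a 30 min heat shock at the 2 to 3 somite stage and were dissected 3 h later. The *hsp70l* heat-shock promoter drives *tbx16*, a T-box transcription factor of paraxial mesoderm, or *msgn1*, a bHLH transcription factor of the presomitic mesoderm, in all cells that respond to heat. Heterozygous tg(*hsp70l:msgn1*) fish were outcrossed and the siblings without the transgene served as wild type, whereas homozygous tg(*hsp70l:tbx16*) fish were outcrossed, so in that line the effects of transgene and of parents cannot be told apart. Levels are given below as CPM, counts scaled to library size, with TMM, a normalization that sets most genes to no change. The files used give no gene lengths, so levels are compared between samples and not between genes.

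Counts summed to between 30750552 and 49654769 per sample, and the kinesin lines took 0.280 to 0.301% of the counts in tg(*hsp70l:tbx16*), 0.188 to 0.250% in tg(*hsp70l:msgn1*) and 0.233 to 0.273% in wild type. These are shares of raw counts, without TMM, so they cannot show whether the family changed on the scale used below. The TMM factors were 1.08 to 1.14 in tg(*hsp70l:tbx16*), 0.81 to 0.99 in tg(*hsp70l:msgn1*) and 0.98 to 1.05 in wild type. The transgenes followed the labels. *tbx16* was at 836, 976 and 564 CPM in tg(*hsp70l:tbx16*), against 332, 364 and 372 CPM in wild type. *msgn1* was at 1909, 1428 and 1958 CPM in tg(*hsp70l:msgn1*), against 732, 889 and 701 CPM in wild type. Counts of endogenous gene and transgene cannot be told apart. All 9 tailbud progenitor markers, a list with *tbx16* and *msgn1* among them, were found in every sample, with a summed level of 1808 to 2257 CPM in tg(*hsp70l:tbx16*), 4073 to 4795 CPM in tg(*hsp70l:msgn1*) and 3389 to 3779 CPM in wild type. The sums of the transgenic lines include their transgene. By point estimate 7 of the 9 markers were below wild type in tg(*hsp70l:msgn1*) and 2 above. Their median log2 fold change was -0.20, beside -0.02 over all genes. Only *msgn1* itself was called in that line, as higher.

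The first comparison asked how the kinesin genes stood in tg(*hsp70l:tbx16*) tailbuds. *kif26aa*, the gene for which the family was chosen, was high in tg(*hsp70l:tbx16*) and low in wild type, while its paralogues *kif26ba* and *kif26ab* fell. *kif13a*, *kif3a*, *kif14* and *kif20a* rose, and *kif1aa*, *kif1b*, *kif5ba* and *kif3cb* fell. Of the 37 other members that passed the filter on low counts, 10 were called at an adjusted p under 0.05 by edgeR's quasi-likelihood test, 4 higher and 6 lower. The 6 include *kif3cb*, which passed that filter only through the wild-type samples, where it was high. Among all 19914 genes tested, 30.7% were called, 15% higher and 15.7% lower. When scaled by library size alone, the count was 12, and its split was 8 higher and 4 lower. In all, 5961 of the 19914 genes were then called. That scaling set the median log2 fold change of all genes at 0.18, against 0.03 with TMM. Called with at least 1.5-fold change as well were 6 of the 37 members, beside 24.1% of all 19914 genes. In 14 members every tg(*hsp70l:tbx16*) sample was above every wild-type sample and in 8 every sample was below, beside 27.8% and 25.1% of all genes.

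**Figure D1:**
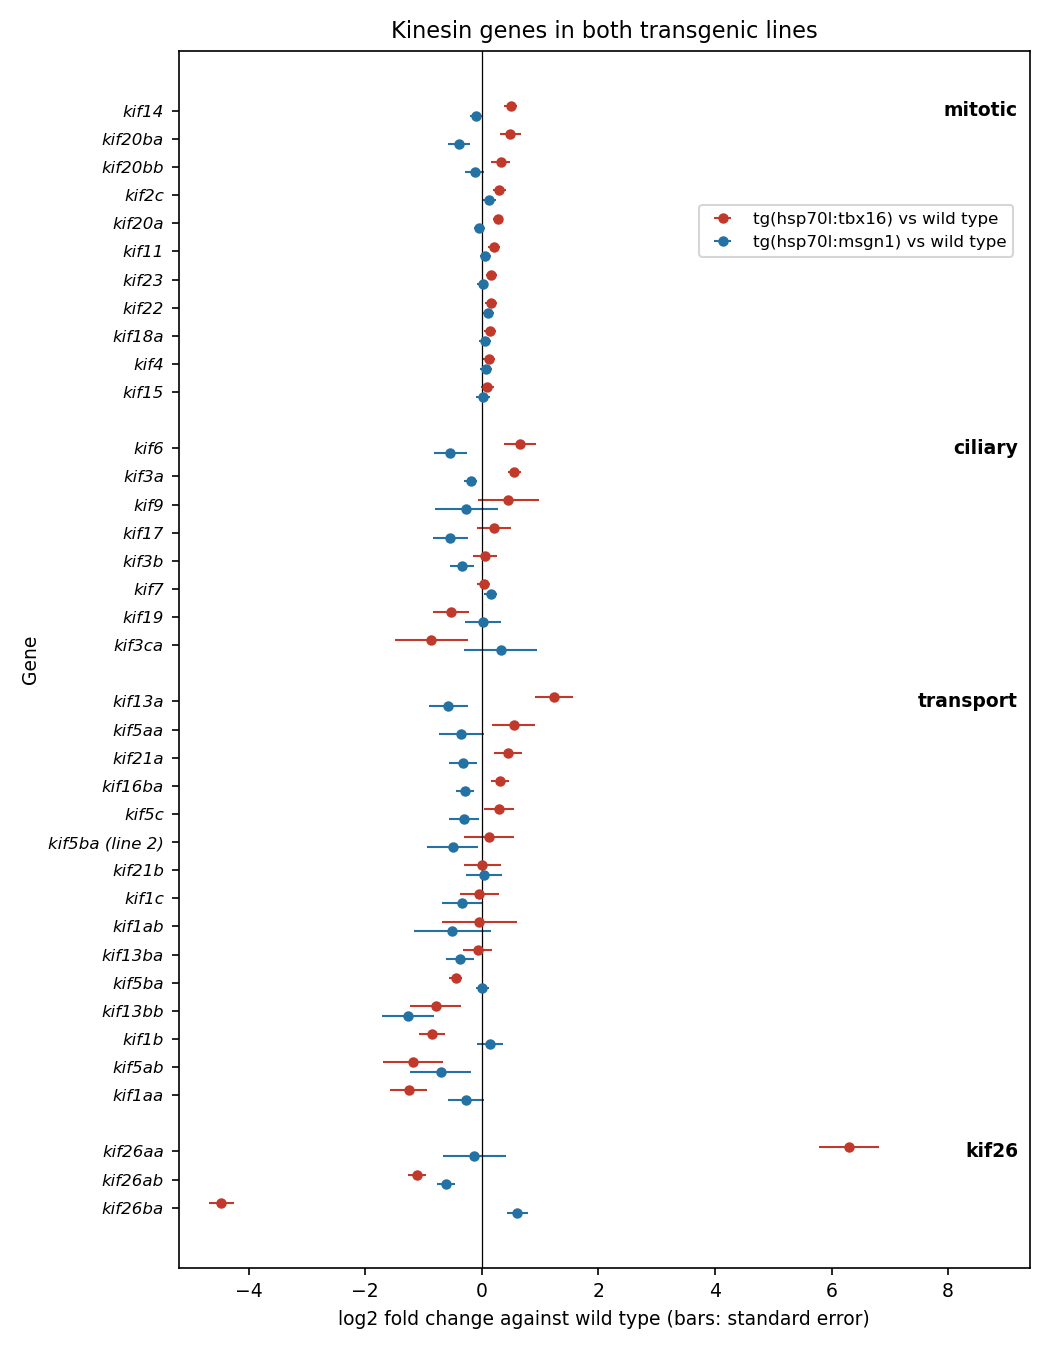
Log2 fold change of each tested kinesin gene against wild type in tg(*hsp70l:tbx16*) (red) and tg(*hsp70l:msgn1*) (blue) tailbuds, fitted by edgeR on 3 samples per group; bars are standard errors, and *kif5ba (line 2)* is the *kif5ba* line with fewer counts. *kif3cb*, which had no counts in tg(*hsp70l:tbx16*), is not drawn. The red points reach from -4.46 for *kif26ba* to 6.30 for *kif26aa*, and the 11 mitotic kinesins all lie between 0.10 and 0.50 in red.

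The kif26 genes went apart from one another. *kif26aa* was at 76.6, 49.96 and 61.8 CPM in tg(*hsp70l:tbx16*), at 0.202, 1.38 and 0.486 CPM in tg(*hsp70l:msgn1*) and at 0.729, 0.438 and 1.18 CPM in wild type. In raw counts that was 3491, 2796 and 2783 reads in tg(*hsp70l:tbx16*), 5, 50 and 16 in tg(*hsp70l:msgn1*) and 32, 15 and 49 in wild type. The tg(*hsp70l:tbx16*) samples lay above every other sample, by a fitted 79.0-fold over wild type (log2 6.30, between 6.04 and 6.71 over 15 alternative settings).

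*kif26ba* was instead lowest in tg(*hsp70l:tbx16*). It was at 1.34, 1.25 and 0.955 CPM in tg(*hsp70l:tbx16*), at 34.1, 38.2 and 47.8 CPM in tg(*hsp70l:msgn1*) and at 25.9, 21.2 and 31.5 CPM in wild type. All 3 tg(*hsp70l:tbx16*) samples were below the lowest wild-type sample, and the level fell 22.1-fold (log2 fold change -4.46 ± 0.22, SE, adjusted p = 1.8e-06, edgeR's quasi-likelihood test). The call stood in all 16 alternatives, where the log2 fold change ran from -4.60 to -4.31.

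*kif26ab*, the paralogue of *kif26aa* that arose with it in the genome duplication of teleost fish, fell as well. It was at 187, 132 and 192 CPM in tg(*hsp70l:tbx16*), at 215, 281 and 224 CPM in tg(*hsp70l:msgn1*) and at 358, 358 and 384 CPM in wild type. The 3 groups did not overlap, with tg(*hsp70l:tbx16*) lowest and wild type highest. Against wild type it fell 2.16-fold in tg(*hsp70l:tbx16*) (log2 fold change -1.11 ± 0.16, SE, adjusted p = 0.000656, edgeR's quasi-likelihood test), and this call too stood in all 16 alternatives. *kif26bb* had 3 counts in 1 tg(*hsp70l:tbx16*) sample and 0 in the other 8 samples, and was not tested.

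*kif26aa* thus held 24.3 to 29.0% of the reads of the 4 kif26 genes in tg(*hsp70l:tbx16*), against 0.0810 to 0.431% in tg(*hsp70l:msgn1*) and 0.115 to 0.283% in wild type. The summed level of the kif26 genes was nevertheless lower in tg(*hsp70l:tbx16*), at 183 to 264 CPM, than in wild type, at 380 to 417 CPM. Without *kif26aa* the sums were 133 to 193 CPM in tg(*hsp70l:tbx16*) and 380 to 416 CPM in wild type. How reads that match several paralogues were counted is not given in the sources used here.

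**Figure D2:**
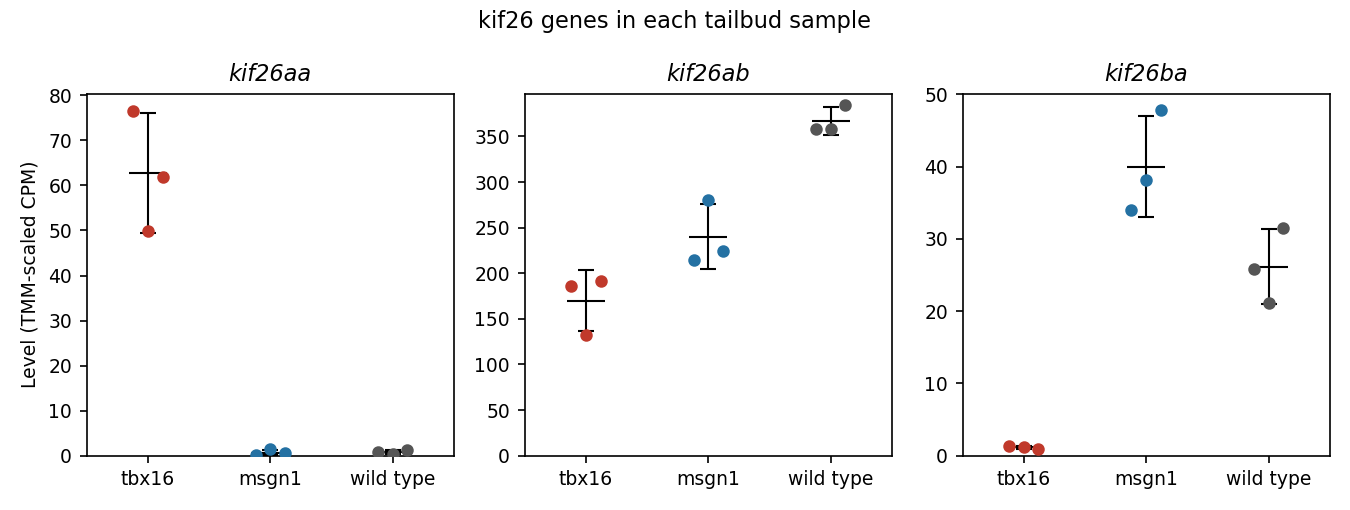
Levels of *kif26aa*, *kif26ab* and *kif26ba* in TMM-scaled CPM in each of the 9 tailbud samples, with the mean (wide line) and SD (error bars) of 3 samples per group; each panel has its own axis from 0. *kif26aa* averages 62.8 CPM in tg(*hsp70l:tbx16*) and 0.782 CPM in wild type, while *kif26ab* averages 170 CPM in tg(*hsp70l:tbx16*) and 367 CPM in wild type, and *kif26ba* 1.18 CPM in tg(*hsp70l:tbx16*) and 26.2 CPM in wild type.

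Genes of the Wnt/Ror and planar polarity pathway, in which KIF26B is placed in mammals, were examined beside the kif26 genes. Of 28 listed genes 27 were found and tested, and 10 were called lower and 2 higher in tg(*hsp70l:tbx16*) than in wild type, beside 15.7% and 15% of all genes. By point estimate 22 were below and 5 above wild type, with a median log2 fold change of -0.35 (0.03 over all genes). The 3 called genes with the largest decrease were *vangl1*, a transmembrane component of the planar polarity complex, and the non-canonical ligands *wnt5a* and *wnt11*. *wnt5a* was at 0.899, 2.54 and 1.15 CPM in tg(*hsp70l:tbx16*), against 5.65, 8.38 and 6.62 CPM in wild type. The groups did not overlap, and it fell 4.46-fold (log2 fold change -2.16 ± 0.35, SE, adjusted p = 0.00138, edgeR's quasi-likelihood test). *wnt11* fell 4.06-fold (log2 fold change -2.02, adjusted p = 0.000509) and *vangl1* 4.56-fold (log2 fold change -2.19, adjusted p = 0.000684). The Ror receptors, named after their values were seen, also fell, with log2 fold changes of -1.07 for *ror1* (adjusted p = 0.00863) and -0.59 for *ror2* (adjusted p = 0.0106). The 2 genes that rose were *prickle2a*, a cytoplasmic planar polarity component (log2 fold change 2.82, adjusted p = 0.00367), and *celsr2*, an atypical cadherin (log2 fold change 0.98, adjusted p = 0.00793). The tailbud progenitor markers were also lower, with 8 of 9 called lower in tg(*hsp70l:tbx16*) and *tbx16* itself higher, and in bulk samples fewer cells of a type and less RNA per cell cannot be told apart. The part of the progenitor markers in these values was not tested.

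Of the 16 transport kinesin lines 15 were tested, and 1 was called higher and 3 lower in tg(*hsp70l:tbx16*) than in wild type, with a median log2 fold change of -0.04. The share called was 26.7%, against 30.7% of all genes. *kif16bb* had at most 10 counts in a sample and was not tested. The other 11 lines were not called, with log2 fold changes from -1.18 to 0.55 and adjusted p from 0.114 to 0.979.

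*kif13a*, a kinesin-3 that carries vesicles to the cell surface and recycling endosomes, was the transport kinesin that rose. It was at 21.5, 10.3 and 11.6 CPM in tg(*hsp70l:tbx16*), at 2.66, 5.36 and 4.25 CPM in tg(*hsp70l:msgn1*) and at 5.22, 5.29 and 7.84 CPM in wild type. The lowest tg(*hsp70l:tbx16*) sample was above the highest wild-type sample, and replicate 1 of tg(*hsp70l:tbx16*) stood at about the sum of the other two. The rise was 2.37-fold (log2 fold change 1.24 ± 0.33, SE, adjusted p = 0.0173, edgeR's quasi-likelihood test). The call was lost without replicate 1 of tg(*hsp70l:tbx16*) (log2 fold change 0.85, adjusted p = 0.0623) and without replicate 1 or 2 of wild type (adjusted p = 0.0705 and 0.0628). Its relative *kif13ba*, also a vesicle carrier, was at 50.3, 27.9 and 40.5 CPM in tg(*hsp70l:tbx16*) and 40.1, 35.7 and 48.7 CPM in wild type, with groups that overlapped (log2 fold change -0.07, adjusted p = 0.855).

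The transport kinesins that fell were *kif1aa*, *kif1b* and the main line of *kif5ba*. Their relatives *kif1ab*, *kif1c*, *kif5aa*, *kif5ab* and *kif5c*, named after their values were seen, were not called. Those had log2 fold changes of -0.04, -0.04, 0.55, -1.18 and 0.29. *kif1aa*, whose mammalian counterpart carries synaptic vesicle precursors, was at 1.91, 1.32 and 1.27 CPM in tg(*hsp70l:tbx16*), at 2.94, 4.06 and 1.88 CPM in tg(*hsp70l:msgn1*) and at 3.21, 4.35 and 3.18 CPM in wild type. It fell 2.39-fold against wild type (log2 fold change -1.25 ± 0.32, SE, adjusted p = 0.0139, edgeR's quasi-likelihood test), on 57 to 149 reads per sample in these 2 groups. Without replicate 2 of wild type or replicate 2 of tg(*hsp70l:tbx16*) the adjusted p was 0.0535 and 0.0580.

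*kif1b*, a carrier of mitochondria and synaptic vesicle precursors, was at 27.7, 20.4 and 21.99 CPM in tg(*hsp70l:tbx16*), at 32.4, 51.5 and 55.9 CPM in tg(*hsp70l:msgn1*) and at 38.3, 35.3 and 53.0 CPM in wild type. The tg(*hsp70l:tbx16*) samples were below all others, and the level fell 1.81-fold against wild type (log2 fold change -0.85 ± 0.22, SE, adjusted p = 0.0164, edgeR's quasi-likelihood test). The call was lost with library size alone (adjusted p = 0.0678) and without replicate 3 of wild type, replicate 2 of tg(*hsp70l:tbx16*) or replicate 3 of tg(*hsp70l:tbx16*) (adjusted p = 0.0574, 0.0646 and 0.0530).

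*kif5ba* is a heavy chain of kinesin-1, the conventional motor of vesicles and mitochondria. Its main line was at 88.5, 90.0 and 75.3 CPM in tg(*hsp70l:tbx16*), at 120, 106 and 124 CPM in tg(*hsp70l:msgn1*) and at 124, 113 and 109 CPM in wild type. No tg(*hsp70l:tbx16*) sample reached the lowest sample of the other groups, and the level fell 1.36-fold against wild type (log2 fold change -0.45 ± 0.11, SE, adjusted p = 0.0115, edgeR's quasi-likelihood test). The adjusted p was 0.0657 with library size alone and 0.0586 without replicate 1 of wild type. The second *kif5ba* line held 2.22 to 4.56 CPM in tg(*hsp70l:tbx16*) and 2.19 to 3.68 CPM in wild type and was not called, so the gene is uncertain in as far as reads were shared between the lines.

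**Figure D3:**
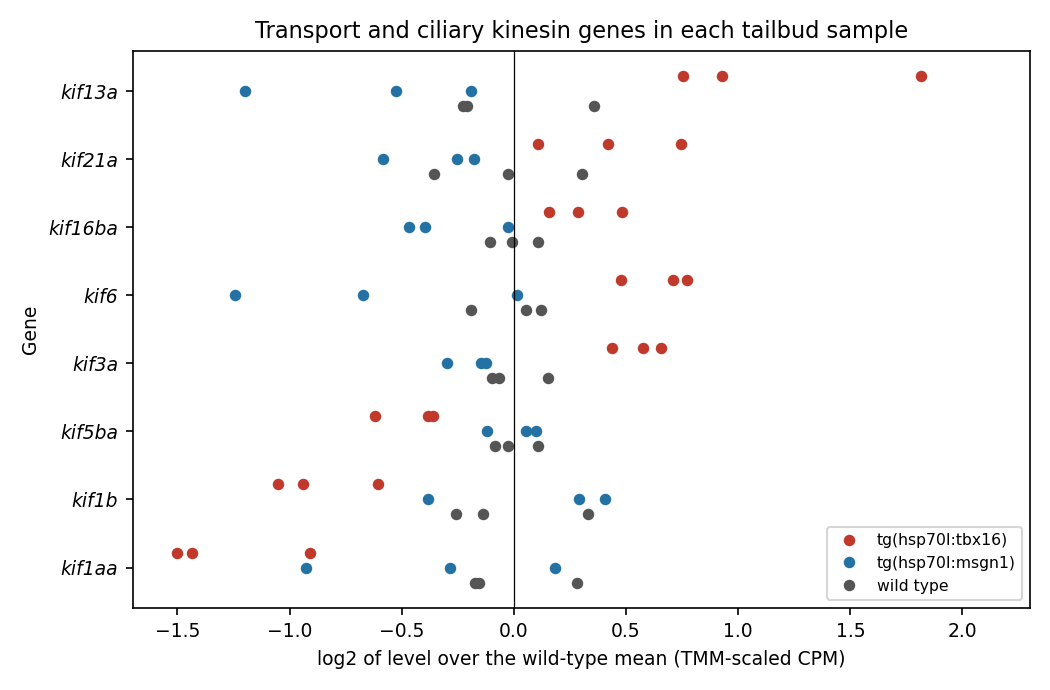
Log2 of the level of each named transport kinesin called in tg(*hsp70l:tbx16*) against either group, and of the ciliary *kif6* and *kif3a*, over its wild-type mean (TMM-scaled CPM), 1 point per tailbud sample. The red points of *kif13a* lie right of all grey and blue points, and those of *kif5ba* and *kif1b* left of them; the red and blue points of *kif1aa* overlap.

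Neuron markers were examined beside *kif1aa* and *kif1b*. Of 12 listed markers 11 were found, none of them at 0 in every sample, and their summed level was 99.3 to 105 CPM in tg(*hsp70l:tbx16*), 175 to 229 CPM in tg(*hsp70l:msgn1*) and 214 to 252 CPM in wild type. In tg(*hsp70l:tbx16*) 5 of them were called lower and 3 higher than in wild type, beside 15.7% and 15% of all genes. Single markers thus went both ways while the sum was lower. Their part in the values of *kif1aa* and *kif1b* was not tested.

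Among the 9 ciliary kinesins, *kif3a* rose and *kif3cb* fell in tg(*hsp70l:tbx16*), 22.2% against 30.7% of all genes called, and the other 7 were not called, with adjusted p from 0.103 to 0.847. That share includes *kif3cb*, which passed the filter on low counts only through wild type. *kif3a* encodes a motor subunit of the kinesin-2 trimer of intraflagellar transport. It was at 38.6, 40.8 and 35.1 CPM in tg(*hsp70l:tbx16*), at 23.3, 23.7 and 21.0 CPM in tg(*hsp70l:msgn1*) and at 24.2, 24.7 and 28.7 CPM in wild type. The tg(*hsp70l:tbx16*) samples stood above all others, with a rise of 1.47-fold over wild type (log2 fold change 0.56 ± 0.12, SE, adjusted p = 0.00537, edgeR's quasi-likelihood test) that was called in all 16 alternatives. *kif3b*, the second motor subunit of that trimer, was at 12.5, 15.8 and 10.8 CPM in tg(*hsp70l:tbx16*) and 11.9, 11.7 and 13.9 CPM in wild type. Its groups overlapped and it was not called (log2 fold change 0.06 ± 0.20, SE, adjusted p = 0.847).

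The accessory subunit of the same trimer is encoded by *kifap3a* and *kifap3b*, and both rose. *kifap3b* was at 23.5, 25.5 and 21.9 CPM in tg(*hsp70l:tbx16*), at 5.24, 9.03 and 4.89 CPM in tg(*hsp70l:msgn1*) and at 9.44, 10.1 and 9.33 CPM in wild type. The tg(*hsp70l:tbx16*) samples were all above the rest, and the rise over wild type was 2.45-fold (log2 fold change 1.295 ± 0.22, SE, adjusted p = 0.00161, edgeR's quasi-likelihood test). *kifap3a*, named after its values were seen, was at 34.2, 34.8 and 29.2 CPM in tg(*hsp70l:tbx16*), against 18.3, 18.9 and 19.4 CPM in wild type, a rise of 1.73-fold (log2 fold change 0.79 ± 0.13, SE, adjusted p = 0.00155). A motor subunit and both accessory subunit genes of the trimer were thus called higher, while the second motor subunit was not.

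*kif3cb*, named after its values were seen, encodes a kinesin-2 subunit that pairs with the *kif3a* product in neurons of mammals. It had 0 counts in all 3 tg(*hsp70l:tbx16*) samples, against 22, 16 and 17 counts in wild type, and 0, 16 and 6 counts in tg(*hsp70l:msgn1*). Set against a floor of 3 counts over the 3 tg(*hsp70l:tbx16*) samples, it was at least 22.5-fold lower than wild type (adjusted p = 0.0119, edgeR's quasi-likelihood test). It passed the filter on low counts only through wild type, where it was high, so this p-value adds no support beyond the counts. Its counts were too few for the filter of 10 counts in every sample, and in the other 15 alternatives the adjusted p was at most 0.0393. Those p-values come from the same counts and likewise add no support beyond them. *kif7*, a regulator of Hedgehog signalling at the tip of the cilium, was at 68.6, 60.4 and 62.7 CPM in tg(*hsp70l:tbx16*) and 67.2, 54.0 and 66.1 CPM in wild type, and was not called (log2 fold change 0.03 ± 0.11, SE, adjusted p = 0.847). Of the 7 ciliated cell markers listed, 6 were found and 5 tested, and 1, *tekt1*, a tektin of axonemal microtubules, was called higher in tg(*hsp70l:tbx16*). That was 20% of those tested, against 30.7% of all genes called and 15% called higher. In 1 marker the tg(*hsp70l:tbx16*) samples lay wholly above wild type and in 1 wholly below. The summed level of those markers was 92.8 to 134 CPM in tg(*hsp70l:tbx16*), 98.7 to 109 CPM in tg(*hsp70l:msgn1*) and 101 to 119 CPM in wild type, so the groups overlapped in it.

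Subunits and partners of kinesins, and kinesins named without a kif number, were listed as well. Of 13 listed genes 10 were found and tested, and 5 were called higher and 0 lower in tg(*hsp70l:tbx16*), beside 15% and 15.7% of all genes. By point estimate 8 were above and 2 below wild type, with a median log2 fold change of 0.38 (0.03 over all genes). Besides the *kifap3* genes those called were *klc1a* and *klc3*, light chains of kinesin-1, and *kifc1*, a minus-end directed kinesin that gathers spindle poles and was named after its values were seen. *klc1a* was at 6.10, 6.58 and 4.80 CPM in tg(*hsp70l:tbx16*), against 3.19, 2.83 and 3.75 CPM in wild type (log2 fold change 0.84 ± 0.24, SE, adjusted p = 0.0226, edgeR's quasi-likelihood test). *klc4*, another light chain gene, named after its values were seen, was at 18.8, 20.2 and 18.1 CPM in tg(*hsp70l:tbx16*) and 18.9, 16.1 and 20.9 CPM in wild type, with groups that overlapped (log2 fold change 0.03, adjusted p = 0.914). Of the heavy chain lines, the main line of *kif5ba* was the 1 called. *klc3* had 27, 41 and 11 counts in tg(*hsp70l:tbx16*) and 0 in each wild-type sample, which is at least 21.5-fold higher against a floor of 3 counts over the wild-type samples (adjusted p = 0.0104). It passed the filter on low counts only through tg(*hsp70l:tbx16*), where it was high, so its p-value and its place among the 5 add no support beyond the counts. *kifc1* rose 1.42-fold (log2 fold change 0.51 ± 0.11, SE, adjusted p = 0.00690).

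**Figure D4:**
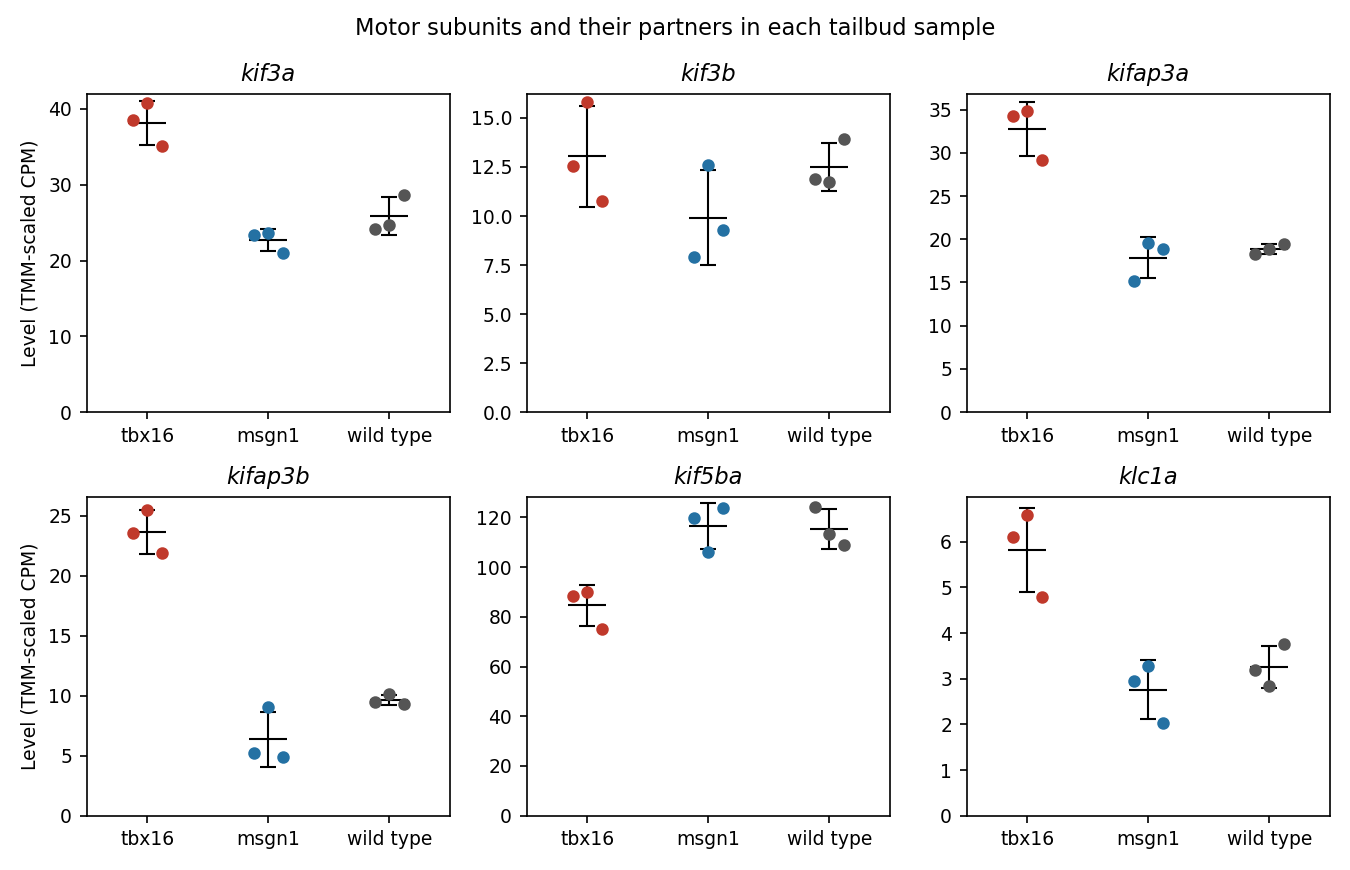
Levels in TMM-scaled CPM of the kinesin-2 motor subunits *kif3a* and *kif3b*, the kinesin-2 accessory subunits *kifap3a* and *kifap3b*, the kinesin-1 heavy chain *kif5ba* (main line) and the kinesin-1 light chain *klc1a*, 1 point per sample with mean (wide line) and SD (error bars) of 3 samples per group. The tg(*hsp70l:tbx16*) points lie above both other groups for *kif3a*, *kifap3a*, *kifap3b* and *klc1a*, lie below them for *kif5ba*, and overlap with them for *kif3b*.

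The 11 mitotic kinesins lay slightly above wild type in tg(*hsp70l:tbx16*). All 11 had a log2 fold change above 0, from 0.10 to 0.50 with a median of 0.21, beside a median of 0.03 over all genes. In 9 of the 11 every tg(*hsp70l:tbx16*) sample was above every wild-type sample, as in 27.8% of all genes. Only 2 of the 11 were called, both higher, which is 18.2% of the class, against 30.7% of all genes called and 15% called higher. None of the 11 was called with at least 1.5-fold change, beside 24.1% of all genes. With library size alone 6 were called, and the median was 0.35, beside 0.18 over all genes. That scaling called 5961 of all 19914 genes. Their summed level was 1978 to 2187 CPM in tg(*hsp70l:tbx16*), 1737 to 1844 CPM in tg(*hsp70l:msgn1*) and 1669 to 1806 CPM in wild type.

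*kif14*, a motor of cytokinesis that acts at the midbody, had the largest of these changes. It was at 89.2, 79.7 and 82.4 CPM in tg(*hsp70l:tbx16*), at 54.9, 59.1 and 52.4 CPM in tg(*hsp70l:msgn1*) and at 64.7, 52.2 and 61.1 CPM in wild type. The tg(*hsp70l:tbx16*) samples were separate from both other groups, and the rise over wild type was 1.41-fold (log2 fold change 0.50 ± 0.11, SE, adjusted p = 0.00693, edgeR's quasi-likelihood test), called in all 16 alternatives. *kif20a*, which brings the chromosomal passenger complex to the central spindle, was at 241, 232 and 255 CPM in tg(*hsp70l:tbx16*), at 189, 201 and 192 CPM in tg(*hsp70l:msgn1*) and at 194, 200 and 204 CPM in wild type. It rose 1.22-fold (log2 fold change 0.28 ± 0.09, SE, adjusted p = 0.0324), a call kept in 9 of the 16 alternatives. Among the 7 losses were those without replicates 1, 2 or 3 of wild type (adjusted p = 0.134, 0.0987 and 0.0800), without replicates 1 or 3 of tg(*hsp70l:tbx16*) (0.0615 and 0.105) and without a filter on low counts (0.0533).

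The pair of mitotic kinesins with the most counts, *kif11* and *kif23*, did not pass the test. *kif11*, the tetrameric motor that pushes spindle poles apart, was at 435, 469 and 492 CPM in tg(*hsp70l:tbx16*), at 408, 432 and 421 CPM in tg(*hsp70l:msgn1*) and at 402, 383 and 423 CPM in wild type (log2 fold change 0.21 ± 0.10, SE, adjusted p = 0.130, edgeR's quasi-likelihood test). *kif23*, the motor of the centralspindlin complex, was at 249, 250 and 285 CPM in tg(*hsp70l:tbx16*) and 244, 229 and 226 CPM in wild type (log2 fold change 0.17 ± 0.10, SE, adjusted p = 0.232). Both had groups that did not overlap, with the tg(*hsp70l:tbx16*) samples higher. *kif20ba*, a kinesin-6 of late cytokinesis, was at 83.6, 79.4 and 96.6 CPM in tg(*hsp70l:tbx16*), at 43.3, 60.4 and 37.4 CPM in tg(*hsp70l:msgn1*) and at 62.9, 51.5 and 70.7 CPM in wild type. Its adjusted p against wild type was 0.0659, and it was called in 5 of the 16 alternatives.

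**Figure D5:**
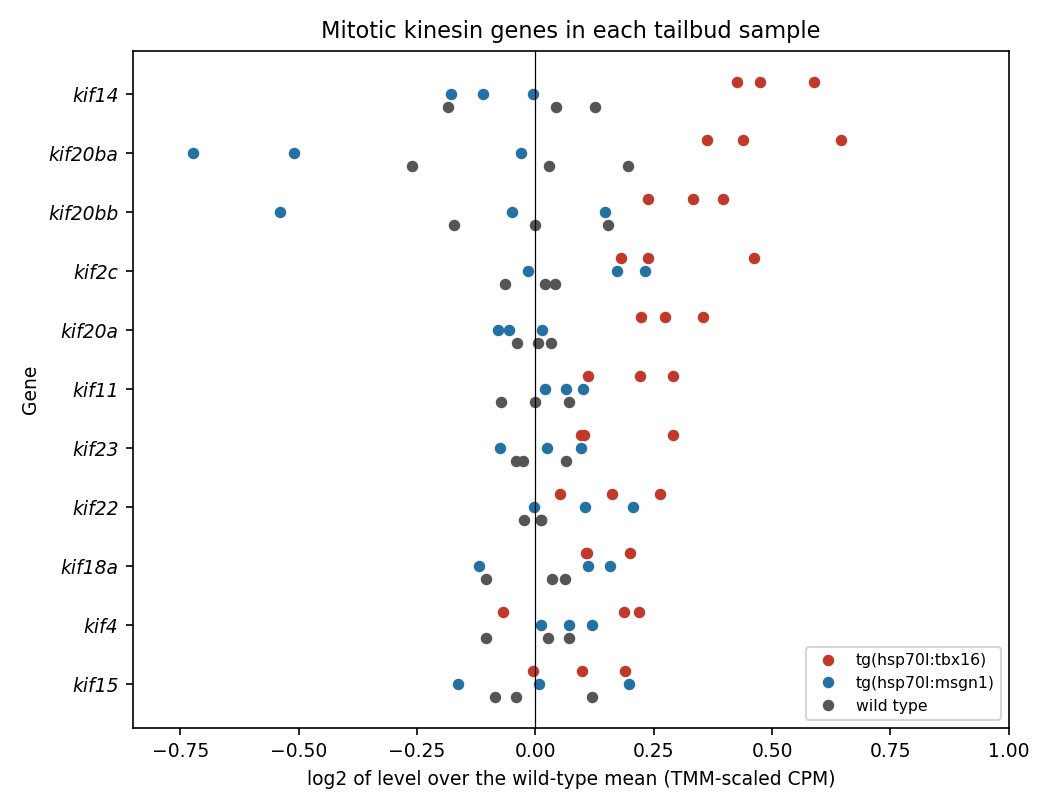
Log2 of the level of each of the 11 mitotic kinesins over its wild-type mean (TMM-scaled CPM), 1 point per tailbud sample of tg(*hsp70l:tbx16*) (red), tg(*hsp70l:msgn1*) (blue) and wild type (grey). In 9 of the 11 genes all red points lie right of all grey points, and in *kif4* and *kif15* they overlap.

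Spindle and cytokinesis partners of these motors were listed too. Of 32 listed genes 31 were found and tested, and 6 were called higher and 0 lower in tg(*hsp70l:tbx16*). That was 19.4% of the list, against 30.7% of all genes called in either direction and 15% called higher. By point estimate 28 were above and 3 below wild type, with a median log2 fold change of 0.20 (0.03 over all genes). The 3 with the largest rise were *prc1b*, which bundles the microtubules of the central spindle and there binds kinesins (log2 fold change 0.88 ± 0.11, SE, adjusted p = 0.000298), *hmmr*, a spindle assembly factor (log2 fold change 0.84 ± 0.10, SE, adjusted p = 0.000231) and *nuf2*, a kinetochore protein (log2 fold change 0.59 ± 0.10, SE, adjusted p = 0.00205), all by edgeR's quasi-likelihood test.

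In tg(*hsp70l:msgn1*) tailbuds, 0 of the 38 tested kinesin lines were called in edgeR's quasi-likelihood test against wild type, beside 0.854% of all genes. At an unadjusted p under 0.05 there were 3, *kif26ab*, *kif26ba* and *kif13bb*, where 14.1% of all genes passed. *kif13bb*, a relative of *kif13a* named after its values were seen, was at 1.17, 1.41 and 0.729 CPM in tg(*hsp70l:msgn1*) and 2.64, 4.21 and 1.15 CPM in wild type, with groups that overlapped (adjusted p = 0.261). DESeq2 called 1 member, *kif26ab*, and 702 of 20135 genes in all, where edgeR called 170 of 19914. The authors, who used DESeq2 with at least 1.5-fold change on these same samples, list *kif26ab* among the genes repressed by both transgenes. Their list is limited to genes that also fall in wild type from progenitor zone to posterior presomitic mesoderm. It is no independent repeat of the call. The level of *kif26ab* was 1.53-fold lower in tg(*hsp70l:msgn1*) than in wild type (log2 fold change -0.61 ± 0.16, SE, adjusted p = 0.126), with no overlap between the groups. Its adjusted p ran from 0.00836 with DESeq2 to 0.345 over the 16 alternatives, and it was 0.0304 without replicate 2 of tg(*hsp70l:msgn1*).

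*kif26ba* was 1.53-fold higher in tg(*hsp70l:msgn1*) than in wild type, again without overlap, and did not pass the test (log2 fold change 0.61 ± 0.18, SE, adjusted p = 0.205, edgeR's quasi-likelihood test). For *kif26aa* the 2 groups overlapped, with a log2 fold change of -0.13 ± 0.54 (SE, adjusted p = 0.947). The choice of the family by *kif26aa* drew on these wild-type samples. This p-value and the place of *kif26aa* among the 38 tested members therefore add no support. Samples of tg(*hsp70l:msgn1*) lay wholly above wild type for 2 members and wholly below it for 3, against 8.84% and 9.78% of all genes. The mitotic kinesins had a median log2 fold change of 0.02 in this line, with 7 of 11 above 0. When scaled by library size alone, the median was -0.15 and 0 of 11 were above 0, while the median of all genes was -0.20. With TMM the transport kinesins had a median of -0.33, with 12 of 15 below 0. The ciliary kinesins had a median of -0.27, with 6 of 9 below 0. Over all 38 tested members the median was -0.23, with 24 below 0, beside -0.02 over all genes.

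The last comparison set the transgenic lines against each other. It tests the difference between the lines, in which the effects of transgenes and of parents cannot be told apart. It shares the tg(*hsp70l:tbx16*) samples with the first comparison and is no independent repeat of it. Of the 37 members other than *kif26aa*, 14 were called by edgeR's quasi-likelihood test, 8 higher and 6 lower in tg(*hsp70l:tbx16*) than in tg(*hsp70l:msgn1*), and 38.3% of all genes were called, 18.5% higher and 19.8% lower. With library size alone the count was 22, of which 20 were higher and 2 lower, and 8272 of all 19914 genes were called. That scaling put the median of all genes at 0.38, against 0.05 with TMM. In 13 members every tg(*hsp70l:tbx16*) sample was above every tg(*hsp70l:msgn1*) sample and in 6 every sample was below, beside 27.4% and 23.7% of all genes.

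*kif26ba* had the largest difference among the tested members with counts in both lines, 33.7-fold lower in tg(*hsp70l:tbx16*) (log2 fold change -5.08 ± 0.23, SE, adjusted p = 1.2e-06, edgeR's quasi-likelihood test). *kif26ab* was 1.41-fold lower (log2 fold change -0.50 ± 0.16, SE, adjusted p = 0.0297), a call kept in 11 of 16 alternatives. The losses included library size alone (adjusted p = 0.457), a fit of only these 2 groups (0.0551), and leaving out replicate 2 of tg(*hsp70l:tbx16*) (0.0995) or replicate 2 of tg(*hsp70l:msgn1*) (0.0806). *kif26aa* was higher in tg(*hsp70l:tbx16*) by a log2 fold change of 6.43, which is given as a description.

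Among transport kinesins 3 were called higher and 3 lower, 40% of the 15 tested lines against 38.3% of all genes. *kif13a* was 3.52-fold higher in tg(*hsp70l:tbx16*) (log2 fold change 1.82 ± 0.34, SE, adjusted p = 0.0026, edgeR's quasi-likelihood test), called in all 16 alternatives. *kif16ba*, a carrier of early endosomes, was at 27.2, 21.7 and 23.7 CPM in tg(*hsp70l:tbx16*), against 14.8, 19.1 and 14.1 CPM in tg(*hsp70l:msgn1*), with no overlap. It was 1.51-fold higher (log2 fold change 0.60 ± 0.15, SE, adjusted p = 0.0117), again in all 16 alternatives. *kif21a*, known in mammals as a neuronal kinesin that restrains microtubule growth, was at 7.90, 5.07 and 6.31 CPM in tg(*hsp70l:tbx16*) and 3.14, 4.17 and 3.95 CPM in tg(*hsp70l:msgn1*). It was 1.71-fold higher in tg(*hsp70l:tbx16*) (log2 fold change 0.77 ± 0.24, SE, adjusted p = 0.0289). That call was lost without replicate 1 or 3 of tg(*hsp70l:tbx16*) (adjusted p = 0.0959 and 0.0617) and without replicate 1 or 3 of tg(*hsp70l:msgn1*) (0.0899 and 0.0544). Neither *kif16ba* nor *kif21a* was called in tg(*hsp70l:tbx16*) against wild type (adjusted p = 0.140 and 0.184). In tg(*hsp70l:msgn1*) against wild type the log2 fold changes were -0.57 for *kif13a*, -0.28 for *kif16ba* and -0.33 for *kif21a*, none of them called.

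The same 3 carriers that were lower than in wild type were also lower than in the other line. Log2 fold changes were -0.999 ± 0.22 for *kif1b* (SE, adjusted p = 0.00676), -0.46 ± 0.11 for *kif5ba* (SE, adjusted p = 0.00845) and -0.98 ± 0.32 for *kif1aa* (SE, adjusted p = 0.0333), by edgeR's quasi-likelihood test. With library size alone none of these 3 was called (adjusted p = 0.0627, 0.394 and 0.149). The call for *kif1aa* was also lost without replicate 2 or 3 of tg(*hsp70l:tbx16*) (0.107 and 0.0951), without replicate 1 or 2 of tg(*hsp70l:msgn1*) (0.0666 and 0.115) and with only these 2 groups in the fit (0.0609).

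Of the ciliary kinesins 2 were called higher and 1, *kif3cb*, lower in tg(*hsp70l:tbx16*) than in tg(*hsp70l:msgn1*). The share called was 33.3%, against 38.3% of all genes. For *kif3cb* the lines overlapped, since replicate 1 of tg(*hsp70l:msgn1*) also had 0 counts. Its call (adjusted p = 0.0216, edgeR's quasi-likelihood test) was lost without replicate 2 of tg(*hsp70l:tbx16*) (0.0572) or replicate 2 of tg(*hsp70l:msgn1*) (0.0612), and it did not pass the filter with only these lines in the fit. *kif3a* was 1.68-fold higher (log2 fold change 0.75 ± 0.12, SE, adjusted p = 0.000991, edgeR's quasi-likelihood test). *kif6*, a kinesin of motile cilia whose loss in zebrafish gives a curved spine, was at 6.93, 7.24 and 5.91 CPM in tg(*hsp70l:tbx16*), at 2.66, 4.28 and 1.79 CPM in tg(*hsp70l:msgn1*) and at 3.72, 4.61 and 4.40 CPM in wild type. It was above both other groups in every sample, with a difference of 2.29-fold from tg(*hsp70l:msgn1*) (log2 fold change 1.20 ± 0.29, SE, adjusted p = 0.00927) and of 1.58-fold from wild type that did not pass the test (log2 fold change 0.66 ± 0.28, SE, adjusted p = 0.103). Both *kif3a* and *kif6* were called between the lines in all 16 alternatives.

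Of the mitotic kinesins 3 were called higher in tg(*hsp70l:tbx16*) than in tg(*hsp70l:msgn1*) and 0 lower, with a median log2 fold change of 0.15. The share called was 27.3%, against 38.3% of all genes called and 18.5% called higher, and the median over all genes was 0.05. *kif20ba* was 1.84-fold higher (log2 fold change 0.88 ± 0.18, SE, adjusted p = 0.00459, edgeR's quasi-likelihood test), *kif14* 1.51-fold (log2 fold change 0.59 ± 0.11, SE, adjusted p = 0.0024) and *kif20a* 1.25-fold (log2 fold change 0.32 ± 0.09, SE, adjusted p = 0.0159). The calls for *kif20ba* and *kif14* stood in all 16 alternatives, and that for *kif20a* was lost without replicate 3 of tg(*hsp70l:tbx16*) (0.0605) and with only these 2 groups in the fit (0.0660). With library size alone 11 of 11 mitotic kinesins were called higher, at a median of 0.48 beside 0.38 over all genes. That scaling called 8272 of all 19914 genes.

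The remaining members were at or under the limit of the measurement. *kif25* had counts in 3 of the 9 samples, 6 and 7 in tg(*hsp70l:tbx16*) and 19 in wild type, and *kif28* had at most 9 counts in any sample. Neither was tested.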

How the data were processed

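RNA was measured by bulk RNA-seq in 9 samples of pooled zebrafish tailbuds, 3 per genotype. The authors trimmed reads with Trim Galore 0.5.0, mapped them to GRCz11 with HISAT2 2.1.0 (versions as in the submitters' processing notes) and quantified genes with StringTie, and the deposited values are whole-number counts of reads for each gene, not normalized. The annotation release, the strand setting, the step to whole numbers and the treatment of reads with several matches are not given in the sources used here, so paralogues and overlapping genes may share reads. The labels gave each sample its group and replicate number.

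Of 32020 lines, 64 with a blank name (0.0820 to 0.101% of a sample's counts) were left out, and 1353 in all had a repeated or blank name; every line was treated as 1 gene, and in other lists a repeated name was read from its line of highest count. Of the 42 kinesin lines, 41 matched a symbol in RefSeq.

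Counts were analysed in R 4.3.3 with edgeR 4.0.16 and limma 3.58.1: filterByExpr (19914 genes kept, 38 of them kinesin lines), TMM, 1 coefficient per genotype over all 9 samples and the quasi-likelihood F-test, with Benjamini-Hochberg adjustment over all tested genes and a threshold of 0.05. The SE of a log2 fold change was derived from this test, as its absolute value over the square root of the F statistic. On average over genes, counting error was small beside the spread between replicates. The mean chi-square per gene between replicates of a group was 18.6 to 90.0, so no sample was a repeat of another. This mean need not hold for members with few counts. Nothing in the labels gives separate parents for the samples of a group, so p-values measure the spread between pools. Self-tests on simulated counts of 19044 genes, 200 of them changed, recovered 48% of genes changed by 1 and 77% of genes changed by 2 on the log2 scale for tg(*hsp70l:tbx16*) against wild type. The simulation changed a far smaller share of genes than the 30.7% called in that comparison, so its recovery need not hold there. Figures were drawn with Python 3.11.15, pandas 2.3.3 and matplotlib 3.10.9.

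The members, the classes and the gene lists were chosen with earlier results of these data known. Named are all kif26 genes, members called with at least 1.5-fold change and a mean of at least 100 raw counts in a comparison of tg(*hsp70l:tbx16*), members called in tg(*hsp70l:msgn1*), the 3 members of each class with the most counts and, of other lists, up to 3 called genes in each direction; *kif25* and *kif28* form a class of their own. Other genes are marked as named after their values were seen. Alternatives were RLE size factors, library size alone, DESeq2 1.42.0, no count filter, a minimum of 10 counts in all samples, a fit of the compared groups alone, replicate number as a block, each sample left out in turn, and at least 1.5-fold change as well.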

Additional observations from a re-analysis of the deposited data

How the results depend on the processing

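No named kinesin reversed a called direction under any alternative. With at least 1.5-fold change as well, 6 members were called in tg(*hsp70l:tbx16*) against wild type, 1 higher and 5 lower, in place of 10. In tg(*hsp70l:msgn1*) against wild type 1 member was called with DESeq2 in place of 0, beside 702 of 20135 genes in all. There, leaving out each sample gave 0 to 1, the 1 without replicate 2 of tg(*hsp70l:msgn1*), where 1198 genes in all were called, in place of 170. Between the lines 22 members were called with library size alone in place of 14, where 8272 genes in all were called, in place of 7637. Leaving out each sample gave 7 (without replicate 1 or 2 of wild type) to 13 (without replicate 2 of tg(*hsp70l:msgn1*)) calls in tg(*hsp70l:tbx16*) against wild type and 11 to 14 between the lines. Over all genes those fits gave 3968 to 6644 and 5640 to 8010 calls. For *kif26aa* the log2 difference between the lines was 7.44 without replicate 2 of tg(*hsp70l:msgn1*), in place of 6.43. Values of the named members counted as unchanged if they stayed on the same side of the threshold. For *kif26aa* in the comparisons with tg(*hsp70l:tbx16*), which was not tested, a fold change that shifted by less than the SD between replicates counted as unchanged. Unchanged were 301, 279 and 275 values in tg(*hsp70l:msgn1*) against wild type, between the lines and in tg(*hsp70l:tbx16*) against wild type. In the same order 0, 19 and 18 lost the call and 2, 4 and 10 gained one. The cause of these changes was not tested.

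With the replicate number as a block, 9 members were called in tg(*hsp70l:tbx16*) against wild type, 0 in tg(*hsp70l:msgn1*) against wild type and 12 between the lines. Over all 19914 genes the calls were 5436, 85 and 6901 in the same order. The calls lost with the block included *kif20a* in tg(*hsp70l:tbx16*) against wild type (adjusted p = 0.0684, edgeR) and *kif26ab* and *kif3cb* between the lines (adjusted p = 0.0548 and 0.0556). The numbers are not known to pair the samples: correlations of same-numbered samples after removal of the group means were -0.044, 0.116 and -0.069 for tg(*hsp70l:tbx16*) and wild type, 0.105, 0.018 and 0.402 for tg(*hsp70l:msgn1*) and wild type, and -0.120, 0.075 and -0.056 between the lines. Depth limits members with few reads: *kif9*, *kif3ca*, *kif1ab*, *kif5ab* and the called *kif3cb* had at most 46 counts in a sample, and *kif3cb* at most 22.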

Other observations

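Dynein, the motor that runs along microtubules against most kinesins, and its cofactors were counted as well. Of 23 listed subunits and cofactors 22 were found and tested, and 4 were called higher and 1 lower in tg(*hsp70l:tbx16*) than in wild type, 22.7% of the list against 30.7% of all genes. By point estimate 13 were above and 9 below wild type, with a median log2 fold change of 0.07 beside 0.03 over all genes. The 3 with the largest rise were *dctn1b*, the large subunit of dynactin (10.0, 8.25 and 9.62 CPM in tg(*hsp70l:tbx16*), against 2.37, 3.15 and 4.96 CPM in wild type, log2 fold change 1.41 ± 0.27, SE, adjusted p = 0.00357, edgeR's quasi-likelihood test), and the dynein regulators *ndel1a* (log2 fold change 0.80 ± 0.24, SE, adjusted p = 0.0291) and *nde1* (log2 fold change 0.76 ± 0.14, SE, adjusted p = 0.00299). The gene that fell was *dync1li2*, a light intermediate chain that links dynein to its cargo (50.5, 47.1 and 43.5 CPM in tg(*hsp70l:tbx16*), against 64.3, 61.0 and 65.0 CPM in wild type, log2 fold change -0.43 ± 0.10, SE, adjusted p = 0.00777). Of the 27 tested Wnt/Ror and planar polarity genes, 1 was called in tg(*hsp70l:msgn1*) against wild type, 3.7% beside 0.854% of all genes. With at least 1.5-fold change as well, 0 were called. The called gene was *prickle2b*, at 105, 119 and 131 CPM in tg(*hsp70l:msgn1*) and 82.8, 75.1 and 82.1 CPM in wild type (log2 fold change 0.57, adjusted p = 0.0381, edgeR's quasi-likelihood test).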
